A study of Homo sapiens with 8 samples.

Results

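The long noncoding RNAs LINC00973, MALAT1, NEAT1, H19, GAS5, SNHG1, DANCR, TUG1, UCA1 and CCAT1 were followed across 4 groups of human colon cancer cells. Members were found as probe sets that the platform's annotation assigned to one of these symbols. Of the 10 members, 6 had at least 1 probe set naming them alone, 22 such probe sets in all among 54675 on the array. These 6 were LINC00973 (1 probe set), MALAT1 (12), GAS5 (1), DANCR (1), TUG1 (6) and UCA1 (1). NEAT1, H19 and SNHG1 were named only together with small RNA genes that lie within them, and so were 4 further probe sets of GAS5, which gave 16 shared probe sets. The shared probe sets are reported as such and were not counted with the 6 members, because the annotation does not say which of the named transcripts they read. CCAT1, a transcript near MYC, was not analysed here. The list was built around LINC00973, which was chosen by its low values in the SW480 arrays labelled Snail, so its values in every comparison that uses SW480 arrays are given as a description with no test. The other members and the gene lists were also chosen with earlier results of these data known. Their p-values and counts are therefore not those of a list chosen independently.

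The groups held 2 arrays each. HT29 and SW480 are established lines from human colorectal adenocarcinomas. HT29 parental cells were grown in DMEM with 10% fetal bovine serum. HT29 spheres, which the labels call first spheres, were grown in DMEM-F12 with an N2 supplement. In this medium the growth factors bFGF and EGF stood at 10 ng/ml each, and no serum is named for these spheres. SW480 cells were stable lines carrying an empty vector or labelled as expressing Snail, the transcriptional repressor encoded by SNAI1, both in DMEM with 10% serum. The labels name neither the promoter of the construct nor whether a stable line was 1 clone. Nor do they tell whether partner arrays hold RNA of different cultures, so p-values measure the spread between arrays, which may be technical. Values are RMA expression on the log2 scale. Means are given ± SD over 2 arrays and differences ± SE from limma.

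Long noncoding RNAs are transcripts that carry no long open reading frame and act as RNA, or through the act of their transcription. MALAT1 and NEAT1 are neighbouring genes whose abundant transcripts stay in the nucleus, MALAT1 in nuclear speckles and NEAT1 as the scaffold of paraspeckles. GAS5, SNHG1 and DANCR are host genes: small nucleolar RNAs (snoRNAs), which guide ribosomal RNA modification, are cut from their introns. H19 is an imprinted fetal RNA that is also the precursor of miR-675, and UCA1 and CCAT1 are RNAs raised in many bladder or colon tumours.

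The labels were checked before the members were read. SNAI1 had the same mean, 6.35, in both SW480 groups (SD 0.01 with vector and 0.04 with the Snail label), a difference of 0.00 ± 0.15 log2 (limma adjusted p = 0.99), so every direction in SW480 rests on the label. Whether the SNAI1 probe set reads RNA made from the construct was not tested, so equal signal does not show that Snail was absent. In SW480 the Snail label came with higher CDH1, the epithelial cadherin that Snail is known to repress (0.76 ± 0.17, limma adjusted p = 0.013). KRT8 was also higher (0.57 ± 0.12, adjusted p = 0.011), and VIM, the mesenchymal filament vimentin, was lower (-0.62 ± 0.14, adjusted p = 0.013). Of the other epithelial markers, KRT19 was higher (0.49 ± 0.12, adjusted p = 0.019) and VIL1 lower (-1.06 ± 0.17, adjusted p = 0.0023). EPCAM, KRT18, KRT20, CDX1, CDX2, LGALS4 and CDH17 did not pass. In spheres SNAI1 rose by 1.07 ± 0.15 (adjusted p = 0.00032). Of 11 colon epithelial markers, 10 or 11 lay above the array's median in HT29 and 8 in SW480. Of 12 markers of stromal, immune and endothelial cells, 6 to 8 lay above it in HT29 and 5 or 6 in SW480, with mean levels of 5.53 to 6.13 log2; LUM, the matrix proteoglycan lumican, rose in spheres from 4.65 to 8.43 (3.78 ± 0.15, adjusted p = 2.3e-07), and its part in the sphere results was not tested. Between partner arrays Pearson's r over genes was 0.991 for parental cells and 0.995 for each other group, and 200 genes lay at least 2-fold apart in parental cells against 10 to 19 elsewhere. The array's controls for ribosomal RNA, 18S and 28S, had means 1.40 and 0.94 log2 units higher with the Snail label, and 0.01 and 0.13 higher with sphere culture. The BioC spike-in read 8.37 in parental cells and 10.01 in spheres, a mean 1.64 higher. It read 9.90 in vector arrays and 9.51 in those labelled Snail, so parental arrays were the lowest. The 3' minus 5' signal of ACTB was 0.21 higher in spheres than in parental cells. The part of these controls in the results was not tested. Array medians over all probe sets were at most 5.61, and detection against background was not measured.

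Promoter windows from RefSeq (build GRCh38.p14), reaching from 250 bases before to 50 after an annotated start, were held for 7 of the 10 members. They are printed for the 4 members with a window whose group means spread most over the arrays, so that the letters before these RNAs can be read beside their values. The spread was taken from each member's brightest probe set, which is a shared one for H19 and GAS5. Capitals mark the E-box CAGGTG, a Snail binding motif, and ACGTG, the core of the hypoxia response element, each searched on both strands (as CACCTG and CACGT on the other strand; neither motif contains the other). Among 35116 RefSeq promoter windows of 300 bases, 20.6% held CAGGTG and 21.4% held ACGTG.
LINC00973, first of 4 windows, chr3:98914316-98914615, plus strand: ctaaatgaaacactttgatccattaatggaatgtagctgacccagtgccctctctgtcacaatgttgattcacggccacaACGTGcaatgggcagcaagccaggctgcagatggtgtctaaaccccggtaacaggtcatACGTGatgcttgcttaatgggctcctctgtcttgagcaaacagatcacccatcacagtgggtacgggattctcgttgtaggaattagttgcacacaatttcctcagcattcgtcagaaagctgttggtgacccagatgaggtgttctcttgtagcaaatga
H19, chr11:2001217-2001516, minus strand: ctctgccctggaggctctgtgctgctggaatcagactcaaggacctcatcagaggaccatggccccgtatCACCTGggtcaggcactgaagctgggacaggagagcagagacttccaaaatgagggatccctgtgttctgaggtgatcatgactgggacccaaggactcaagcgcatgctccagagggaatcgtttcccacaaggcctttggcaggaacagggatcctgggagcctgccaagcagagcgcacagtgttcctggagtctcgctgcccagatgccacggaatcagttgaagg
GAS5, chr1:173868996-173869295, minus strand: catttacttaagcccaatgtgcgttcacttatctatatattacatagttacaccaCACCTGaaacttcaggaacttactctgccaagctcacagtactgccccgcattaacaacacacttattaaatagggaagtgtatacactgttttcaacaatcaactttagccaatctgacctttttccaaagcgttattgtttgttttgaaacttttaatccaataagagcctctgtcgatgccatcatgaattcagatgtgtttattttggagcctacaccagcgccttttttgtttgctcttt
DANCR, chr4:52712144-52712443, plus strand: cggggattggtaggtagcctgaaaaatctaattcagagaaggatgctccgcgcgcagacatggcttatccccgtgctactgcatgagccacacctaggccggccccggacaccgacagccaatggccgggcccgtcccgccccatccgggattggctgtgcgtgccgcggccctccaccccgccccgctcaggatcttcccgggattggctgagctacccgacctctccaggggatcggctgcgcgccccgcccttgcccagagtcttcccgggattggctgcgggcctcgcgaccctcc
The first LINC00973 window held 2 ACGTG matches, at 170 and 111 bases before the start, and no CAGGTG, while its 3 other windows held neither. H19 and GAS5 each held 1 E-box, 180 and 195 bases before the start, and DANCR held neither motif. Of the windows not printed, SNHG1 held 1 E-box, TUG1 held 2 overlapping ACGTG matches, which are 1 site read on both strands, and both MALAT1 windows held neither. A match describes these letters only. The H19 probe sets also name MIR675, whose mature products follow with the seed (bases 2 to 8) in capitals.
hsa-miR-675-5p, chr11:1996800-1996822, minus strand: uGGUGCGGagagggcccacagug
hsa-miR-675-3p, chr11:1996768-1996787, minus strand: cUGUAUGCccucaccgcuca

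In HT29 spheres, LINC00973 and UCA1 rose, DANCR fell, and MALAT1, TUG1 and the single-gene probe set of GAS5 did not pass the test. Thus 3 of 6 members were called, 2 higher and 1 lower, where limma called 31.4% of all 19775 genes, 12.4% higher and 19% lower. In bulk RNA, fewer cells of a type and less RNA per cell cannot be told apart. The median change of the 6 was 0.26 log2, against 0.04 over all genes. Between the arrays labelled Snail and vector arrays, DANCR and GAS5 rose and MALAT1, TUG1 and UCA1 did not pass, so 2 of the 5 tested members were called, both higher, where 16.2% of all genes were called, 8.91% higher and 7.34% lower. The median change of these 5 was 0.59 log2, against 0.01 over all genes. The GAS5 call was lost without vector array 1, without Snail array 1 and without Snail array 2, and the DANCR call held in each of these fits; without Snail array 1 the count stayed at 2 because MALAT1 passed instead. Leaving out the dimmest 40% of genes removed the GAS5 probe set from the test, which gave 1 call among 4 members.

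**Figure D1:**
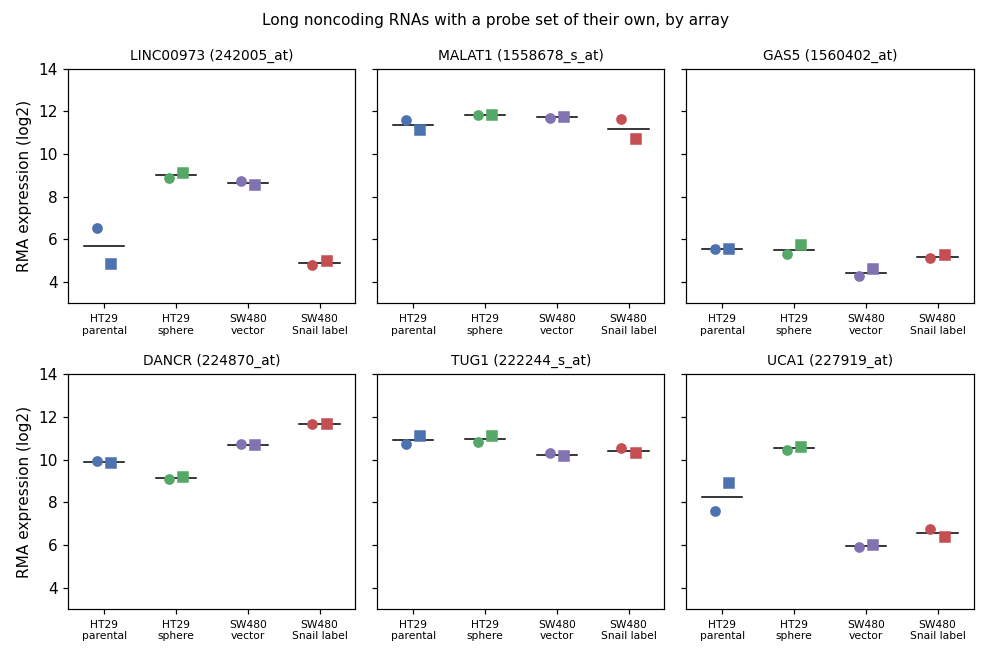
RMA expression (log2, y axis) of the 6 long noncoding RNAs with a probe set of their own, in the 4 groups (x axis). Circles are array 1, squares array 2 and bars the mean of the 2; LINC00973 lies near 9 in spheres and vector cells and near 5 in the arrays labelled Snail, and DANCR differs little between partner arrays.

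LINC00973, an intergenic RNA of chromosome 3 with little settled function, read 6.52 and 4.86 in HT29 parental cells, 8.89 and 9.13 in spheres, 8.74 and 8.54 in vector cells, and 4.79 and 4.98 in the arrays labelled Snail. Both sphere arrays thus lay above both parental arrays, as happens in 1 direction or the other for 62.9% of all genes, and the 2 parental arrays differed more than those of any other group. The rise in spheres was 3.32 ± 0.40 log2, or 9.97-fold (limma adjusted p = 0.00013). The SE and p pool the spread of all 4 groups, so the SW480 arrays that chose LINC00973 enter them. Parental cells had an SD of 1.18, against 0.14 to 0.17 in the other groups. The rise was 3.28 to 3.32 over 10 alternatives to this fit, HT29 fitted alone among them, with limma adjusted p at most 0.00053. It ranged from 2.49 without parental array 2 to 4.15 without parental array 1, and stayed past the threshold in each fit that left out 1 array. In SW480 the arrays labelled Snail stood 3.75 ± 0.40 log2 below vector arrays, a 13.5-fold lower level that is the value LINC00973 was chosen for. The order of the group means was spheres (9.01 ± 0.17), vector (8.64 ± 0.14), parental (5.69 ± 1.18) and Snail label (4.88 ± 0.14). Arrays of the last 2 groups overlapped, and those of the first 2 did not. Parental array 2 and both arrays labelled Snail lay below every array's median, so the sizes of these differences rest on values that may be background. A single probe set read LINC00973, and the annotation's gene number for it was not found in the RefSeq table, which holds the symbol under another number, so the name was matched by symbol.

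UCA1, an RNA of tumour cells named for urothelial cancer, read 7.59 and 8.90 in parental cells, 10.47 and 10.61 in spheres, 5.91 and 6.01 in vector cells, and 6.73 and 6.36 in the arrays labelled Snail. No pair of groups overlapped, and spheres were highest. Of all genes, 62.9% had no overlap between spheres and parental cells, and 72.2% had none between vector and parental cells. It rose in spheres by 2.30 ± 0.33 log2, or 4.92-fold (limma adjusted p = 0.00039), with 1.64 to 2.95 when 1 array was left out. In SW480 the difference was 0.59 ± 0.33 (adjusted p = 0.27), with both arrays labelled Snail above both vector arrays; 60.4% of all genes had no overlap between these groups. That comparison passed with SW480 fitted alone (adjusted p = 0.038) or without either HT29 parental array (adjusted p = 0.025), which lay 1.31 log2 apart and enter the shared spread of the fit on all 8 arrays.

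H19 was read by 2 shared probe sets that also name MIR675. The brighter read 5.80 and 5.45 in parental cells, 8.32 and 8.14 in spheres, 5.64 and 5.83 in vector cells, and 5.62 and 5.30 in the arrays labelled Snail. The sphere arrays stood above all others by more than 2 log2 units. Both arrays labelled Snail also lay below both vector arrays, though narrowly, where 60.4% of all genes had no overlap between these groups. The signal rose in spheres by 2.61 ± 0.17 log2, or 6.10-fold (limma adjusted p = 2.4e-06, over 54613 probe sets, of which 23.2% were called, 9.57% higher and 13.6% lower). The dimmer rose by 1.98 ± 0.17 (adjusted p = 1.5e-05). In SW480 the 2 probe sets differed by -0.27 ± 0.17 and 0.04 ± 0.17 (adjusted p = 0.36 and 0.91). The parental values lie close to the array medians, or below them for the dimmer probe set, so part of that signal may be background and the folds are uncertain. Both probe sets carry the manufacturer's mark for probes that also match other transcripts.

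**Figure D2:**
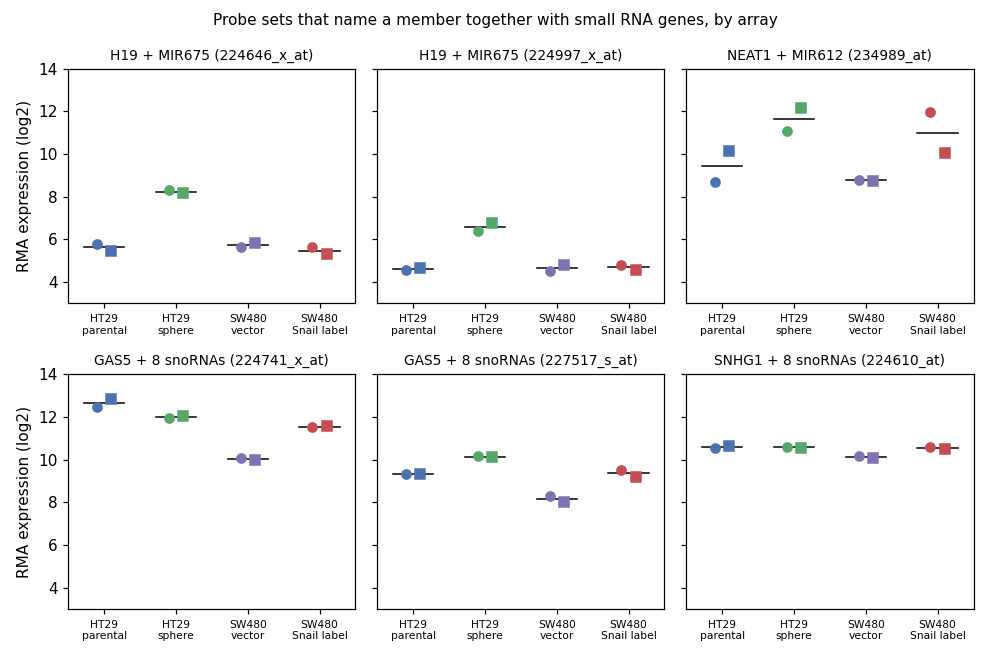
RMA expression (log2, y axis) of 6 of the 16 probe sets that name a member together with small RNA genes, in the 4 groups (x axis). Circles are array 1, squares array 2 and bars their mean; the H19 signal is high in spheres alone, the NEAT1 arrays of the group labelled Snail lie 1.94 apart, and the 2 GAS5 probe sets shown differ in direction between parental cells and spheres.

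Among the snoRNA hosts, DANCR read 9.96 and 9.84 in parental cells, 9.10 and 9.19 in spheres, 10.72 and 10.69 in vector cells, and 11.67 and 11.68 in the arrays labelled Snail. The 4 groups were fully separated, and partner arrays differed by 0.12 log2 or less. Of all genes, 62.9% had no overlap between spheres and parental cells. The share was 60.4% between the Snail label and vector, and 72.2% between vector and parental cells. DANCR fell in spheres by 0.75 ± 0.12 log2 (limma adjusted p = 0.00081) and rose in the arrays labelled Snail by 0.97 ± 0.12 (adjusted p = 0.00064). The 2 changes differed by -1.72 ± 0.17 log2 (adjusted p = 7.1e-05), and each call held without any 1 array. Such a difference passed for 3 of 5 tested members, UCA1 higher and DANCR and GAS5 lower, where 27.5% of all genes passed, 10.6% higher and 16.9% lower.

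GAS5, a host of snoRNAs that builds up in growth-arrested cells, gave different answers by probe set in HT29 and the same direction in SW480. Its brightest probe set, which is shared, read 12.46 and 12.86 in parental cells, 11.97 and 12.05 in spheres, 10.07 and 10.00 in vector cells, and 11.54 and 11.56 in the arrays labelled Snail. Every group stood apart from the others, with vector cells lowest. Of all genes, 62.9% had no overlap between spheres and parental cells, and 60.4% had none between the Snail label and vector. This probe set fell in spheres by 0.65 ± 0.16 log2 (limma adjusted p = 0.010), as did the second brightest by 0.63 ± 0.15. In contrast the third rose by 0.82 ± 0.16 (adjusted p = 0.0027) and the fourth by 0.56 ± 0.15 (adjusted p = 0.017). The probe set naming GAS5 alone, the dimmest, read 5.54 ± 0.01 and 5.51 ± 0.31 there, near the array medians. The 2 probe sets that fell carry the cross-matching mark and the 2 that rose do not. No direction of GAS5 in spheres can therefore be given. Without parental array 2 or sphere array 1, the fall of the brightest no longer passed (adjusted p = 0.064 and 0.068). In SW480 all 5 probe sets rose with the Snail label, from 0.74 ± 0.18 to 1.88 ± 0.15 log2, where 11.9% of all probe sets were called, 6.1% higher and 5.84% lower. The rise of the brightest was 1.51 ± 0.16 (limma adjusted p = 0.00021). The probe set naming GAS5 alone read 4.28 and 4.60 in vector cells and 5.12 and 5.25 in the arrays labelled Snail. These values lie below every array's median and may be background, so the size of its rise is uncertain. In the fit over genes the rise of the single-gene probe set was 0.74 ± 0.17 (adjusted p = 0.015), and it no longer passed without vector array 1 or either array labelled Snail (adjusted p = 0.12, 0.059 and 0.11).

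SNHG1, host of a cluster of box C/D snoRNAs, was read by 1 probe set shared with snoRNA genes. It stood at 10.54 and 10.62 in parental cells, 10.59 and 10.55 in spheres, 10.15 and 10.08 in vector cells, and 10.60 and 10.52 in the arrays labelled Snail. Vector cells alone were low. The difference in spheres was -0.01 ± 0.13 log2 (limma adjusted p = 0.98). It was 0.44 ± 0.13 higher with the Snail label at the edge of the threshold (adjusted p = 0.0498), and no longer passed in 6 of the 8 fits that left out 1 array (adjusted p up to 0.22), with the replicate block (adjusted p = 0.069), after a second quantile normalisation, or with SW480 fitted alone (adjusted p = 0.053).

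Other snoRNA hosts were read from a list of 21, of which 7 had a probe set of their own. In SW480 3 of these 7 were higher with the Snail label and 0 lower, where 8.91% and 7.34% of all genes were, with a median of 0.40 log2 against 0.01 over all genes. ZFAS1 read 10.74 and 10.59 in vector cells and 12.22 and 12.19 in the arrays labelled Snail, a rise of 1.54 ± 0.14 (adjusted p = 0.00013), and SNHG4 rose by 1.18 ± 0.15. EPB41L4A-AS1 rose by 0.90 ± 0.16 in SW480 and fell by 0.61 ± 0.16 in spheres. In spheres 1 of 7 rose, 2 fell and 4 did not pass, where 12.4% of all genes rose and 19% fell; EEF2, the translation elongation factor, fell by 1.00 ± 0.16. Host transcripts such as GAS5 are cleared by nonsense-mediated decay, an RNA surveillance pathway. Of 11 measured decay factors, 3 rose and 4 fell in spheres, among them PNRC2 (-1.14 ± 0.15) and NBAS (-1.03 ± 0.13). In SW480 only UPF2 passed among these 11, at 0.47 ± 0.13; DHX34 came next with -0.46 ± 0.16 (adjusted p = 0.079).

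MALAT1 was read by 12 probe sets. The brightest read 11.58 and 11.10 in parental cells, 11.83 and 11.82 in spheres, 11.70 and 11.72 in vector cells, and 11.62 and 10.71 in the arrays labelled Snail. Spheres lay above parental cells on both arrays, where 62.9% of all genes had no overlap between these groups in either direction. The arrays labelled Snail lay the widest apart. Its changes were 0.48 ± 0.26 log2 in spheres and -0.54 ± 0.26 in SW480 (limma adjusted p = 0.19 in each). All 12 probe sets had higher means in spheres than in parental cells, from 0.48 to 2.05 log2, and 6 of 12 passed the test over probe sets, where 9.57% of all probe sets were called higher. Of these 6, 5 carry the cross-matching mark, as do 7 of all 12. The largest change was that of the fifth brightest, which rose from 8.26 and 8.41 to 10.23 and 10.54, by 2.05 ± 0.20 (adjusted p = 3.3e-05). The mean of the 12 probe sets rose by 0.95 ± 0.22 (adjusted p = 0.010). In SW480, 11 of 12 differences were below 0. Only the fifth brightest probe set passed, falling by 0.72 ± 0.20 (limma adjusted p = 0.040), where 5.84% of all probe sets were called lower. The sixth brightest had a difference of 0.70 ± 0.20 (limma adjusted p = 0.0502). Array 2 of the group labelled Snail read lower than array 1 on all 12 probe sets, by 0.44 to 1.10 log2. Leaving out array 1 of that group gave -0.997 for the brightest probe set, now past the threshold (adjusted p = 0.023).

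NEAT1 was read by 9 probe sets, each of which also names MIR612. The brightest read 8.70 and 10.13 in parental cells, 11.07 and 12.16 in spheres, 8.80 and 8.72 in vector cells, and 11.96 and 10.02 in the arrays labelled Snail. Both arrays of spheres lay above parental cells and both labelled Snail above vector cells. In either direction, 62.9% and 60.4% of all genes had no overlap between these groups. Partner arrays lay 1.09 to 1.94 log2 apart in every group but vector. The signal rose by 2.20 ± 0.58 log2 in spheres (limma adjusted p = 0.018) and by 2.23 ± 0.58 with the Snail label (adjusted p = 0.031). The first call was lost without parental array 1 or sphere array 2 (adjusted p = 0.16 and 0.15), and the second without either vector array or without Snail array 1 (adjusted p from 0.13 to 0.21), where the difference was 1.26 in the last case. The mean of the 9 probe sets had a difference of 1.27 ± 0.39 in SW480 (adjusted p = 0.061). All 9 probe sets had higher means in spheres and with the Snail label; 3 passed in spheres and 2 in SW480, where 9.57% and 6.1% of all probe sets were called higher. The brightest and the fourth, the fifth and the sixth brightest lay between 1.57 and 2.28 log2 in spheres and between 1.94 and 2.23 in SW480. The other 5 lay between 0.27 and 0.76 and between 0.48 and 0.69. NEAT1 is made as a short and a long isoform with a common start; where each probe set lies along the gene was not analysed here, and the split was not assigned to an isoform.

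**Figure D3:**
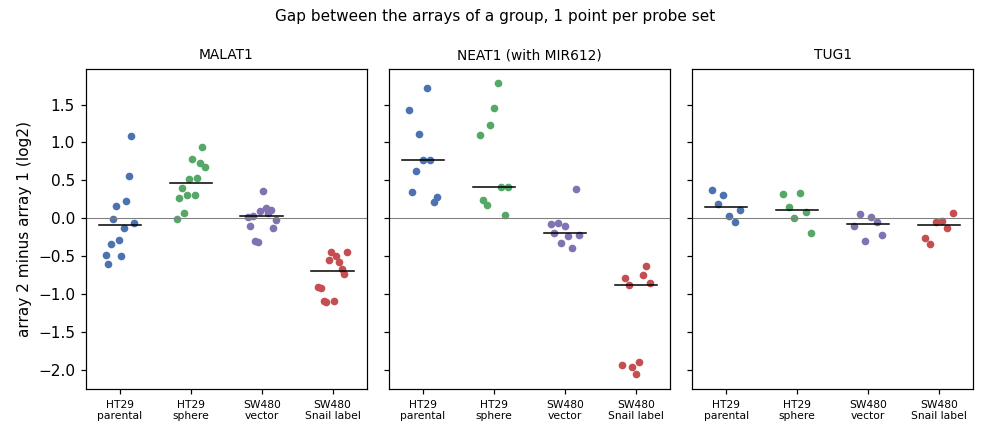
Array 2 minus array 1 (log2, y axis) for each probe set of MALAT1 (12), NEAT1 (9) and TUG1 (6) within each group (x axis); lines are medians. In the group labelled Snail every MALAT1 and NEAT1 probe set lies below 0, with medians of -0.70 and -0.89, while TUG1 gaps lie between -0.34 and 0.37 over all groups.

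The gap between partner arrays had 1 sign over all 9 NEAT1 probe sets in parental cells, spheres and the arrays labelled Snail, and over all 12 MALAT1 probe sets in the last of these alone. In the arrays labelled Snail the median gap was -0.89 log2 for NEAT1, -0.70 for MALAT1 and -0.08 for TUG1. In parental cells NEAT1 read higher on array 2 with all 9 probe sets (median 0.76), while MALAT1 was mixed, 8 lower and 4 higher. In spheres array 2 was higher with 9 of 9 NEAT1 and 11 of 12 MALAT1 probe sets. The 18S and 28S controls differed by 0.30 and -0.14 log2 between the 2 arrays labelled Snail; their part in these gaps was not tested.

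TUG1, a nuclear and cytoplasmic RNA first named in retina, was read by 6 probe sets. The brightest read 10.74 and 11.11 in parental cells, 10.81 and 11.13 in spheres, 10.29 and 10.19 in vector cells, and 10.56 and 10.30 in the arrays labelled Snail. Parental cells and spheres overlapped. Its changes of 0.04 ± 0.17 in spheres and 0.19 ± 0.17 in SW480 did not pass (limma adjusted p = 0.88 and 0.52). Of the other 5 probe sets, the fourth brightest read 7.60 and 7.63 in parental cells against 6.32 and 6.66 in spheres. It fell by 1.13 ± 0.15 (limma adjusted p = 0.00022), and the remaining 4 passed in neither comparison. Thus 1 of 6 probe sets was called lower in spheres, where 13.6% of all probe sets were.

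**Figure D4:**
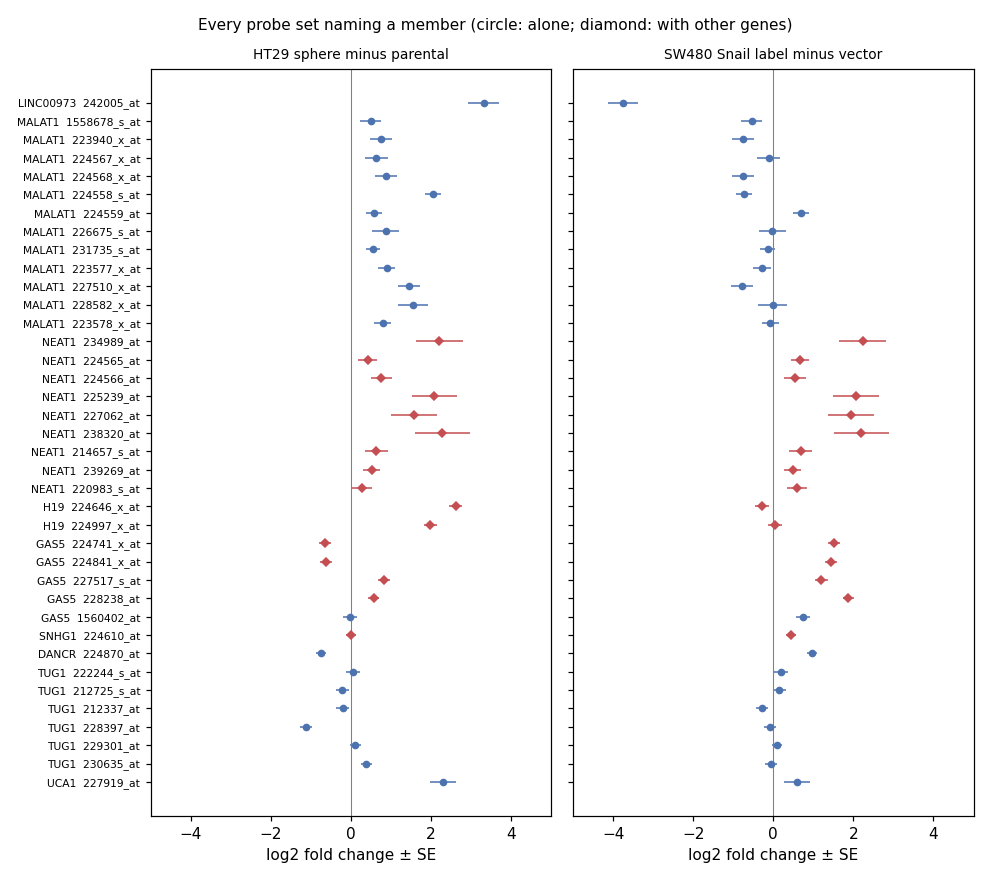
Log2 fold change ± SE from limma (x axis) for each of the 38 probe sets that name a member (y axis), in spheres against parental cells (left) and in the arrays labelled Snail against vector arrays (right). Circles name the member alone and diamonds name it with other genes; GAS5 probe sets lie on both sides of 0 in spheres and above 0 in SW480, and the LINC00973 value at right is the one it was chosen for.

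The 2 lines also differed before either treatment, a comparison that shares its arrays with those above and in which line, construct and handling cannot be told apart. Against HT29 parental cells, SW480 vector cells had higher DANCR (0.81 ± 0.12 log2) and lower UCA1 (-2.28 ± 0.33) and TUG1 (-0.68 ± 0.17). GAS5 was lower too, by -1.10 ± 0.17 with its own probe set, which lay below every array's median in vector cells. With the brightest shared probe set of GAS5 the difference was -2.62 ± 0.16. With their own probe sets, 4 of 5 tested members were thus called (limma adjusted p from 0.00021 to 0.0072). Of all genes 46.1% were called, 22.6% higher and 23.5% lower, and in 72.2% of genes the arrays of these groups did not overlap. MALAT1 differed by 0.37 ± 0.26 (adjusted p = 0.27). The TUG1 call was lost without parental array 2 (adjusted p = 0.057). H19 differed by 0.11 ± 0.17 and NEAT1 by -0.65 ± 0.58 with their brightest probe sets (adjusted p = 0.66 and 0.42). Of probe sets, 6 of 12 of MALAT1 and 1 of 9 of NEAT1 were higher and 5 of 5 of GAS5 lower, and TUG1 had 1 higher and 3 lower of 6, where 37.2% of all probe sets were called, 19.3% higher and 18% lower. The change in spheres exceeded that in SW480 for 5 of 12 MALAT1, 2 of 2 H19 and 0 of 9 NEAT1 probe sets and was lower for 4 of 5 of GAS5 and 1 of 6 of TUG1, where 20.2% of all probe sets passed that test, 8.48% higher and 11.8% lower; for NEAT1 the smallest unadjusted p by limma was 0.395, so 0 of 9 lay under 0.05.

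Of 39 other measured long noncoding RNAs on a list of 45, 7 rose and 14 fell in spheres, and 3 rose and 1 fell in SW480, with medians of -0.13 and 0.07 log2. Over all genes 12.4% rose and 19% fell in spheres, and 8.91% rose and 7.34% fell in SW480. PCAT6, an RNA described in prostate cancer, rose by 2.29 ± 0.24, and MIR210HG, host of the hypoxia microRNA miR-210, by 2.01 ± 0.31 (adjusted p = 0.00061). DLEU1, from a region deleted in leukaemia, fell by 1.49 ± 0.13, and CRNDE, an RNA raised in colorectal neoplasia, by 1.53 ± 0.18. MIR210HG and CRNDE were named after their values were seen. In SW480 DLEU2, host of miR-15a and miR-16-1, rose by 1.53 ± 0.30 (adjusted p = 0.0068) and KCNQ1OT1, an imprinted antisense RNA, fell by 0.90 ± 0.19 (adjusted p = 0.010).

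Protein partners of the members were read from further lists, whose counts stand against the same shares of all genes, 12.4% and 19% in spheres and 8.91% and 7.34% in SW480. Of 18 measured paraspeckle proteins, 2 rose and 5 fell in spheres; NONO, which binds NEAT1 and is needed for paraspeckles, fell by 1.17 ± 0.12 and NUDT21, a 3' end processing factor, by 1.17 ± 0.13. In SW480 2 rose and 1 fell, with EWSR1 at 0.66 ± 0.13 and HNRNPH3 at -1.07 ± 0.16. Of 15 nuclear speckle and MALAT1 processing genes, 1 rose and 3 fell in spheres, among them RBM25 (-0.73 ± 0.16) and the splicing factor SRSF1 (-0.58 ± 0.15), and 3 rose in SW480, led by SRSF5 (0.89 ± 0.14) and the speckle scaffold SON (0.51 ± 0.12). Of 21 imprinted genes and H19 partners, 3 rose and 7 fell in spheres; DNMT1, the maintenance DNA methyltransferase, fell by 1.93 ± 0.18 and IGF2BP3, an RNA-binding protein that binds H19 and IGF2 transcripts, by 1.22 ± 0.14. In SW480 IGF1R rose by 1.25 ± 0.20 and MEST fell by 0.78 ± 0.13, among 3 rises and 1 fall. The partner list of UCA1, DANCR, TUG1 and CCAT1 had 4 rises and 4 falls among 14 in spheres, with HK2, the glycolytic hexokinase, up by 1.49 ± 0.13 and MYC by 1.20 ± 0.15. In SW480 it had 0 rises and 2 falls, HK2 by 0.46 ± 0.13 and CEBPA by 0.99 ± 0.13.

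The nearest measured protein-coding genes on either side of each member were set beside them, a description that draws on RefSeq gene order alone. ERVMER34-1, which lies next to DANCR, read 5.90 and 5.76 in parental cells, 4.66 and 4.83 in spheres, 7.82 and 7.85 in vector cells, and 8.88 and 8.99 in the arrays labelled Snail. It had the same order of groups as DANCR, with -1.09 ± 0.13 log2 in spheres and 1.10 ± 0.13 in SW480 (limma adjusted p = 0.00012 and 0.00048). USP46, on the other side of DANCR, passed in neither (-0.20 ± 0.14 and 0.16 ± 0.14). Beside LINC00973, DCBLD2 fell in both comparisons, by 0.80 ± 0.18 and 0.77 ± 0.18, and COL8A1 passed in neither. NEAT1 and MALAT1 lie between FRMD8, which rose by 0.92 ± 0.14 in spheres and 0.81 ± 0.14 in SW480, and LTBP3, which fell by 0.62 ± 0.14 and 0.71 ± 0.14. Beside UCA1, CYP4F2 rose in spheres by 1.16 ± 0.20, while OR10H1 on the other side differed by -0.20 ± 0.17 (adjusted p = 0.40). MRPL23, whose RefSeq span overlaps that of H19, fell in spheres by 0.80 ± 0.17 (adjusted p = 0.0052), opposite to the H19 signal, and TNNT3 and INS passed in neither comparison. CENPL, beside GAS5, fell in spheres by 0.44 ± 0.13 (adjusted p = 0.025), and SERPINC1 and the overlapping ZBTB37 passed in neither. SLC3A2, beside SNHG1, rose in spheres by 1.03 ± 0.28 (adjusted p = 0.019), and WDR74 passed in neither, as did MORC2 and SMTN beside TUG1. Of the neighbours of CCAT1, LRATD2 rose in SW480 by 0.67 ± 0.13 (adjusted p = 0.0080) and POU5F1B passed in neither.

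Likeness over the 8 arrays was measured by Pearson's r on the log2 values, as a description, since arrays of a group share their source. The genes most like LINC00973 were HSPA5, the main chaperone of the endoplasmic reticulum (r = 0.991), SURF6 (0.979), KDM6B, a histone demethylase (0.975), PMEPA1 (0.973) and TMEM208 (0.972). HSPA5 read 12.38 and 12.04 in parental cells, 13.07 and 13.06 in spheres, 13.06 and 13.11 in vector cells, and 12.09 and 12.04 in the arrays labelled Snail. HSPA5 was picked for the highest r of all genes, so sharing the high arrays of spheres and vector cells with LINC00973 follows from that choice. For both, parental array 1 read above array 2, and these arrays entered the r as well. Most like UCA1 were ANG, the ribonuclease angiogenin (0.999), and EFNA1, an ephrin ligand (0.995), and most like DANCR were STAG1, a cohesin subunit (0.999), and IDH3B, a subunit of mitochondrial isocitrate dehydrogenase (0.997).

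**Figure D5:**
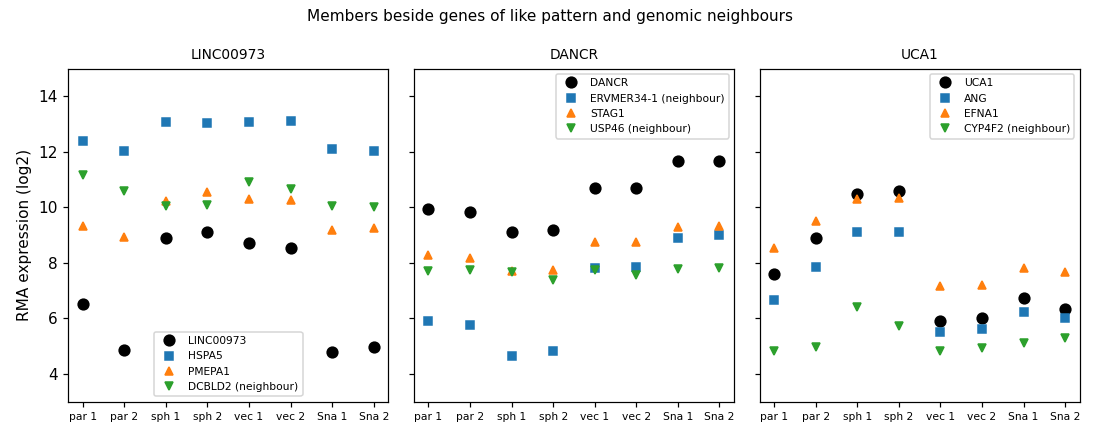
RMA expression (log2, y axis) on each of the 8 arrays (x axis: par, parental; sph, spheres; vec, vector; Sna, Snail label) for LINC00973, DANCR and UCA1 (black) beside genes of like pattern and genomic neighbours. HSPA5 follows LINC00973 within a range of about 1 log2 unit (12.04 to 13.11), and ERVMER34-1 has the same order of groups as DANCR while USP46 does not.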

How the data were processed

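Expression was measured on 8 Affymetrix arrays, 2 per group. The deposited values are log2 expression per probe set and array, made by the authors with RMA, per the submitters' processing notes, with no version named there. Depth does not apply to arrays, and the number of arrays limits the precision.

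Probe sets were named through GEO's platform annotation: of 54675, 62 were controls, 41091 named 1 gene, 1801 several and 11721 none. Symbols were updated by gene number where RefSeq (GRCh38.p14) held it, for 41037 probe sets. For each of 19775 genes the brightest single-gene probe set, by its mean of 8 arrays, was used. Limma 3.58.1 in R 4.3.3 fitted a mean per group to all 8 arrays (4 residual and 6.10 prior degrees of freedom). Tests were two-sided with Benjamini-Hochberg adjustment over all genes, or over 54613 probe sets for shared and dimmer probe sets, at a threshold of 0.05. The code was tested on simulated data. An exact test of 2 arrays against 2 was not used.

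Named were SNAI1, all members, the 2 lowest adjusted p per list and comparison, the nearest measured neighbours, and the genes most correlated with LINC00973 (5) and with members whose group means spanned over 2 log2 units (2 each). The members and lists were chosen with earlier results of these data known. Alternatives changed the spread model, array weights, block, probe set rule, normalisation, filter, prior, adjustment and arrays.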

Additional observations from a re-analysis of the deposited data

Results flagged for a closer look

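Several members changed differently in HT29 spheres than with the Snail label in SW480. The sphere change minus the Snail change was -1.72 ± 0.17 log2 for DANCR (limma adjusted p = 7.1e-05), 1.71 ± 0.46 for UCA1 (adjusted p = 0.020) and -0.78 ± 0.24 for the GAS5 probe set of its own (adjusted p = 0.037). The UCA1 difference was past the threshold in 4 of the 8 fits that left out 1 array, with values from 1.05 to 2.36, and that of GAS5 in 2 of 8, from -0.99 to -0.56.

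With shared probe sets it was 2.88 ± 0.24 log2 for H19 (limma adjusted p = 2.6e-05) and -2.16 ± 0.22 for GAS5 (adjusted p = 8.0e-05). Both held without any 1 array. For GAS5 the size depends on the probe set, since the third brightest probe set gave -0.39 ± 0.22 (adjusted p = 0.26).

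For LINC00973 both sphere arrays lay above both parental arrays and both arrays labelled Snail below both vector arrays. In either direction, 62.9% and 60.4% of all genes had no overlap between these groups. The difference between the changes was 7.07 ± 0.56 log2. It was not tested, because it contains the SW480 difference of -3.75 ± 0.40 that LINC00973 was chosen for.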

How the results depend on the processing

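Counts of called members were 3 of 6 in spheres, 2 of 5 in SW480, 4 of 5 between the lines and 3 of 5 for the difference of changes. Of all genes, 31.4%, 16.2%, 46.1% and 27.5% were called in these comparisons. Counting probe sets shared with nested small RNAs to their host, chosen after seeing the data, gave 6 of 9 in spheres and 4 of 8 in SW480. The 6 include GAS5 by its brightest shared probe set, although its probe sets differ in direction in spheres. The 4 include SNHG1, whose call over probe sets lay at the edge of the threshold. Without the dimmest 40% of genes the SW480 count was 1 of 4, GAS5 not being tested. Leaving out 1 array gave 3 in every case in spheres, 1 to 3 in SW480, 3 to 4 between the lines and 1 to 3 for the difference. Of 612 tested values of single members under the alternatives, 548 kept direction and side of the threshold, 34 no longer passed, 14 newly passed and 16 changed sign; none of the 16 had passed in the fit reported except 1, the shared GAS5 probe set in spheres.

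With the mean of a gene's probe sets, TUG1 in spheres was -0.17 and the shared GAS5 probe sets 0.022. After a second quantile normalisation the NEAT1 difference between the changes was 0.070. The sign changes on leaving out 1 array lay within these ranges: in spheres GAS5 from -0.25 to 0.19, TUG1 from -0.14 to 0.23 and SNHG1 from -0.052 to 0.036; between the lines NEAT1 from -1.37 to 0.062 and H19 from -0.066 to 0.28; for the difference TUG1 from -0.33 to 0.043 and NEAT1 from -0.99 to 0.94. The causes were not tested.

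Same-numbered arrays did not deviate together (correlations of deviations from -0.057 to 0.061), so numbers were not taken to pair arrays. With the replicate block the counts were 3, 2, 4 and 4, MALAT1 being added to the last (adjusted p = 0.030). That MALAT1 difference also passed with the mean of its probe sets (0.018), without the dimmest 40% (0.047), with an intensity trend (0.022), and without parental array 1 (0.043) or Snail array 1 (0.0049). Counts over the other gene lists moved by more than 1.5 times in some fits without 1 array: in SW480 the lncRNAs higher went from 1 to 5, and paraspeckle proteins higher from 0 to 2. With all arrays kept, counts higher in spheres also moved: paraspeckle proteins (2 reported) and speckle genes (1 reported) ranged from 0 to 2, each moving in 6 of 10 alternatives, and snoRNA hosts (1 reported) from 0 to 1, moving in 4 of 10. Fits without 1 array leave 1 array in a group, which is assumed to vary like the others.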
